A study of Mus musculus with 2 samples.

Results

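Serpin genes of mouse salivary gland epithelium were compared between young and aged animals. Of 37003 gene names on the array, 63 were serpin genes, taken as every name that begins with Serpin, a clade letter from a to i and a number, with Serping1 left out. They were read by 86 of 56597 probes, and the brightest probe stood for its gene. Clade A had 26 of these genes, clade B 27, clade E 3, clades F and I 2 each, and clades C, D and H 1 each.

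Serpins are proteins of one shared fold. Most of them inhibit a protease by offering it a flexible loop as bait, after which the serpin changes shape and the protease stays trapped in a covalent complex. Clade A and clades C to F are mostly secreted and act in plasma and between cells, on elastase, thrombin, plasmin and their activators. Clade B serpins mostly stay inside cells and act on granule and lysosomal proteases. A few, among them Serpinf1 and Serpinh1, inhibit no protease. The mouse carries many near-copies of some serpins, such as Serpina1, Serpina3, Serpinb6 and Serpinb9, in clusters on chromosomes 1, 12 and 13.

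RNA came from submandibular gland cells that were collected on magnetic beads by EpCAM, an adhesion molecule of epithelial cells. The young group was 1 sample of female C57BL/6 mice aged 9 weeks, and the aged group was 1 sample of female C57BL/6 mice aged 24 months. The paper itself names the strain as C57BL/6N. The labels name no transgene or treatment for either group. According to the methods of the study, young mice were bought from a breeder and aged mice were kept in the institute, so age and source of the animals cannot be told apart. Each sample was read on 1 single-color array, and both arrays were on the same slide. There were no replicates and hence no test. Every error of a signal given below is the scanner software's own, and that of a difference was combined from the errors of both signals. For bright probes, such as those of Serpinb6a and Klk1, the error of a difference came out at 0.20. These errors do not include the spread between animals.

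Levels are given as processed signals, which are fluorescence intensities after background subtraction. Differences are aged minus young on the log2 scale, after the signal of each array was divided by its 75th percentile, 256 at 9 weeks and 198 at 24 months. A signal that is equal on both arrays therefore stands for a positive difference. A spot was counted as measured when the software marked it well above background, and is called dim otherwise. The lowest such signal was 14.1 at 9 weeks and 14.3 at 24 months. A gene was called different at 2-fold, which is 1 on the log2 scale. Where only 1 array measured a gene, a lower limit of its fold was taken from the bright array's value and the larger of the other array's lowest measured signal and the probe's own value there. Signals of different probes are not comparable as amounts of RNA.

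The sorted cells carried the markers of their label. Epcam itself read 1778 ± 178 at 9 weeks and 1573 ± 157 at 24 months, and Krt18, a keratin of simple epithelia, read 84625 ± 8463 and 75885 ± 7588. All 10 epithelial markers looked up were measured on at least 1 array, with a median difference of 0.07, near the 0.09 of all genes. Both arrays also gave signal for markers of other cells. All 12 markers of macrophages and dendritic cells were measured on both arrays, and their signals, each divided by the 75th percentile of its array, summed to 221 at 9 weeks and 109.7 at 24 months. Such sums over probes weigh the brightest probes most and are not amounts of RNA.

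Probes of the genes past 2-fold and of Serpinb1a, the next below, are shown first, since the comparison rests on them. All are 60 bases long, are written 5′ to 3′, lie in coding sequence and have mouse positions on build mm9, as the deposited files give them. Serpinf1 is shown by its second probe, as the brightest one was not recognized as coding, at chr11:75224421-75224480 on the minus strand. Serpinb3b was read at chr1:109051288-109051347 on the minus strand, Serpini1 at chr3:75420571-75420630 on the plus strand and Serpinb1a at chr13:32934693-32934752 on the minus strand.
Serpinf1: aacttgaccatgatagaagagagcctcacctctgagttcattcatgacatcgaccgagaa
Serpinb3b: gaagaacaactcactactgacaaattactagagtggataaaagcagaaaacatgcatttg
Serpini1: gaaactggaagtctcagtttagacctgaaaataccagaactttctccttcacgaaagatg
Serpinb1a: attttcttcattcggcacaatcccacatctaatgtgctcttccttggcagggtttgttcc

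More serpin genes gave a signal than did not. On at least 1 array, 34 of 63 genes (54.0%) were well above background, against 57.7% of all genes, and on both arrays 27 (42.9%), against 50.7% of all genes. Of the others, 6 were measured at 9 weeks alone and 1, Serpini1, at 24 months alone. Among all genes measured on at least 1 array, 9.91% were measured at 9 weeks alone and 2.27% at 24 months alone. The remaining 29 serpin genes were dim on both arrays. Their signals lay between 2.80 and 9.03 on the young array and between 2.80 and 9.42 on the aged array, with Serpina3f at the top on both. For 19 of them the software had written a substitute value on both arrays, so their differences carry no information.

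**Figure D1:**
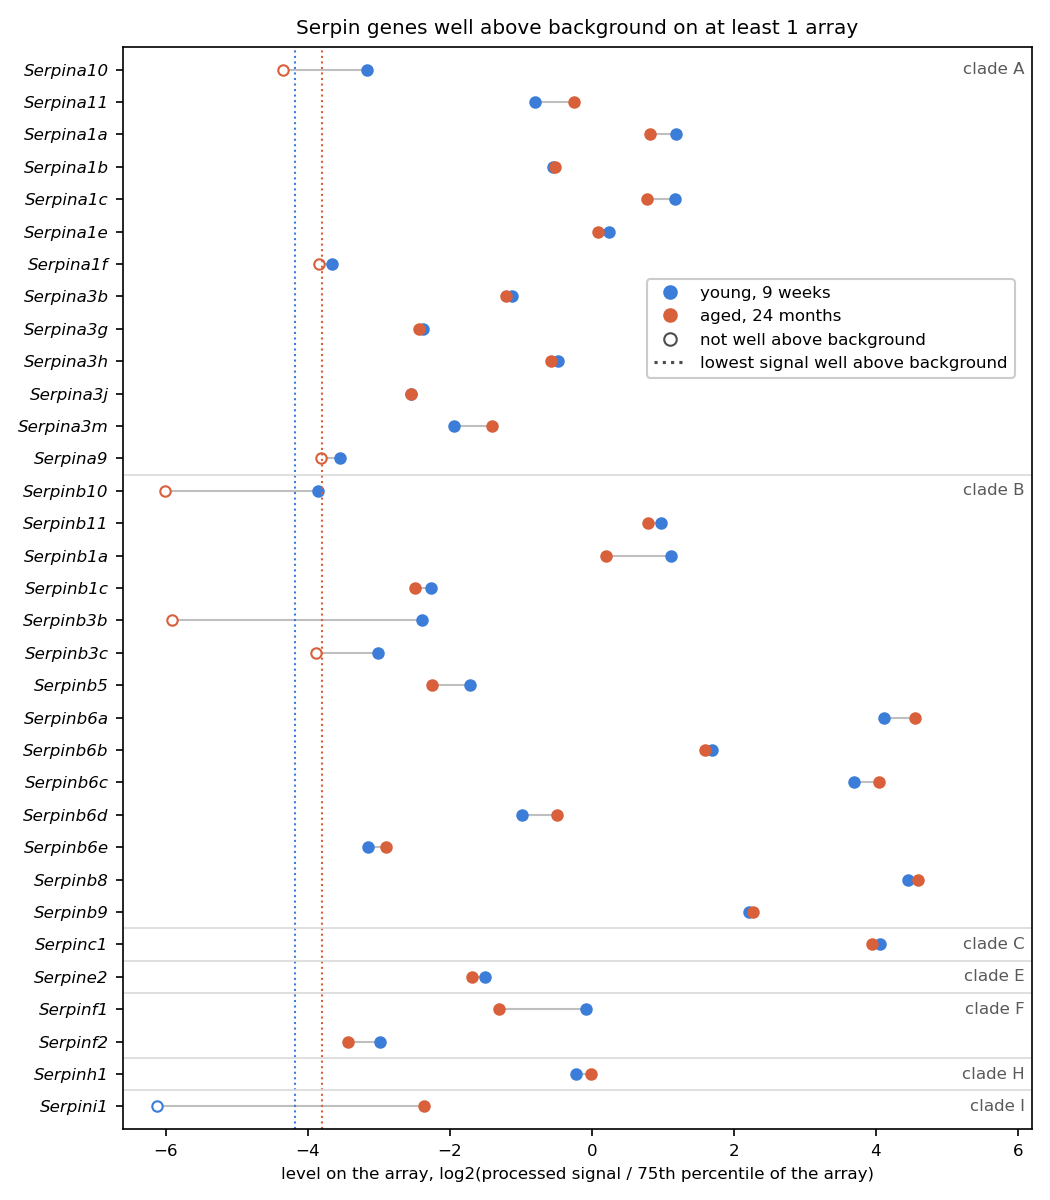
Level of 33 of the 34 serpin genes measured on at least 1 array, as log2 of the processed signal over the 75th percentile of the array, with 1 array per age. Blue points are the young array and red points the aged array, open points were not well above background, and dotted lines mark the lowest signal well above background on each array. Only Serpinf1, Serpinb3b and Serpini1 were called at least 2-fold different, the last 2 by a lower limit. A gap to an open point was counted by its lower limit alone.

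Most serpin genes, like most genes on the array, differed little between the ages. Among the 27 measured on both arrays, 0 were at least 2-fold higher and 1, Serpinf1, was lower with age by that factor. Over all 18745 genes measured on both arrays, 1.52% were higher, 3.05% lower and 4.56% past the threshold in either direction, so 1 of 27 is close to the share of all genes. With lower limits counted, 1 of the 34 serpin genes was higher and 2 were lower, against 2.53% and 5.14% of all genes measured on at least 1 array. The serpin differences ran from -1.24 to 0.55, with a median of -0.10 against 0.09 for all genes, and 22 of 27 (81.5%) were within 0.5 of 0, close to the 76.7% of all genes. Of these genes, 10 lay above 0 and 17 below, where 59.9% of all genes lay above. This split depended on the scaling, with 18 of 27 above 0 after centring on the median and 5 with spike-in controls, RNA added in known amounts. With normexp background correction, which adds an offset to every signal, 14 lay above 0. Scaling moved the other genes too. A scaling that shifts each array by a constant cannot change the gap between the serpin median and that of all genes. Centring (0.08 against 0.27) and spike-in controls (-0.35 against -0.16) are such shifts. The serpin median was also the lower one with quantile normalization (-0.085 against 0.032), loess (-0.197 against -0.048) and normexp (0.005 against 0.104).

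**Figure D2:**
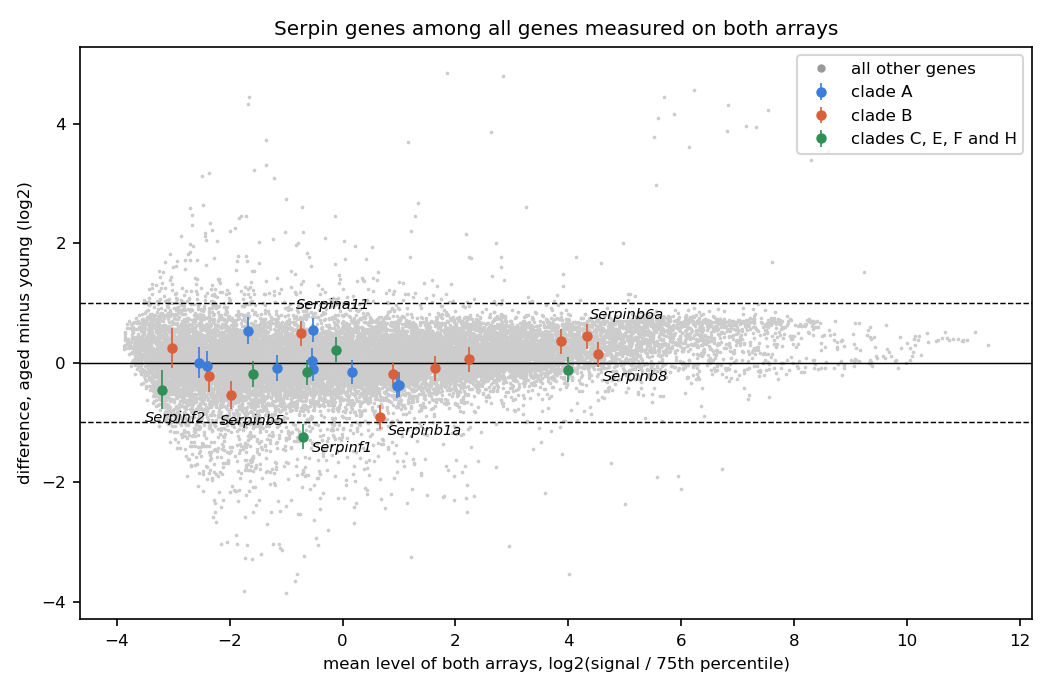
Difference between the arrays, aged minus young on the log2 scale, against the mean log2 level of both arrays, for the 27 serpin genes (colored by clade) and all other genes (gray) measured on both. Bars are the error of the difference, combined from the scanner software's errors of both signals, and dashed lines mark 2-fold. Only Serpinf1 lies past a dashed line, and Serpinb1a, at -0.91, lies just inside it.

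Serpinf1 encodes pigment epithelium-derived factor, a secreted serpin that restrains the growth of blood vessels and does not inhibit proteases. Its signal was 243 ± 24.5 at 9 weeks and 79.6 ± 8.46 at 24 months, a difference of -1.24 ± 0.21, or 2.36-fold lower with age. The difference was under the threshold with normexp (-0.87), with the mean of its probes (-0.96) and with its dimmest probe (-0.50). A second probe, whose sequence is printed above, read 81.6 ± 8.74 and 28.5 ± 4.26, with a difference of -1.15. The third probe read 27.8 ± 4.52 at 9 weeks and was dim at 24 months, at 15.1 ± 3.89. All 3 probes were thus lower on the aged array, and the 2 measured on both arrays were each past 2-fold. The antiplasmin gene Serpinf2, its neighbor on chromosome 11, read 32.4 ± 4.31 and 18.3 ± 3.38, with a difference of -0.45 ± 0.33.

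Many markers of macrophages, dendritic cells and fibroblasts were lower on the aged array as well. Of 12 macrophage and dendritic cell genes, 9 were at least 2-fold lower and 0 higher, with a median of -1.5. Among them were Cd68 (-1.06), Adgre1 (-1.36), Itgax (-1.64), Lyz2 (-1.91), Lyz1 (-2.18), Mrc1 (-1.88), Cd163 (-1.86) and Clec10a (-2.35), with Lyz2 the brightest at 23810 ± 2381 and 4884 ± 488. Of 10 fibroblast genes, 7 were measured on both arrays and 3 of these, Col1a1 (-1.81), Col1a2 (-1.44) and Col3a1 (-1.73), were at least 2-fold lower, with a median of -0.98, and Pdgfra was lower by its limit of 1.29. The brightest fibroblast gene was Dcn, at 3475 ± 348 and 1360 ± 136, and Dpt was dim on both arrays. The fibroblast signals, scaled to the 75th percentile, summed to 19.4 at 9 weeks and 9.66 at 24 months. Over 7 ways of scaling or background correction, 7 of the 9 macrophage and dendritic cell calls and 2 of the 4 fibroblast calls held in all, Cd68 being lost after centring on the median and Col1a1 and Pdgfra with normexp. In a sample of mixed cells, fewer cells of a type and less RNA per cell cannot be told apart, and the part of these cells in the Serpinf1 value was not tested.

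Of the 6 serpin genes measured on the young array only, 1 passed the 2-fold limit, and over all 2116 such genes 24.9% did. That gene was Serpinb3b, a mouse relative of the human squamous cell carcinoma antigens, which inhibit cathepsins and chymotrypsin-like proteases. It read 48.6 ± 5.85 at 9 weeks and 3.27 ± 3.28 at 24 months, where its signal did not exceed its error, and was at least 2.63-fold lower with age. With normexp its limit on the log2 scale was 0.33, under the threshold. Serpinb3c, which lies in the same cluster, read 31.8 ± 4.47 and 13.4 ± 3.46, with a limit of 1.72-fold. Serpinb10, a serpin of blood-forming cells, read 17.7 ± 3.54 and 3.08 ± 3.09, and its limit came out under 1, so no fold is given. Serpina10, which holds back coagulation factor X together with protein Z, read 28.7 ± 4.21 and 9.69 ± 3.27, a limit of 1.55-fold. Serpina1f and Serpina9 read 20.2 ± 3.84 and 22 ± 3.73 on the young array, with limits under 1.2-fold.

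Serpini1 was the 1 serpin gene measured on the aged array only. It encodes neuroserpin, an inhibitor of tissue plasminogen activator that is known mainly from neurons. Its signal was 3.66 ± 3.67 at 9 weeks and 38.4 ± 5.34 at 24 months, at least 3.53-fold higher with age. With normexp background correction its limit was 0.72 on the log2 scale, under the threshold. Over all 485 genes measured on the aged array only, 52.6% passed the 2-fold limit. The other 2 Serpini1 probes were dim on both arrays, one of them, at chr3:75446123-75446182, with 3.26 and 3.28 and the other with 3.5 and 3.55. The Serpini1 value therefore rests on 1 of its 3 probes, the one printed above.

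In clade B, Serpinb1a stood nearest to the threshold without passing it. It inhibits neutrophil elastase, proteinase 3 and cathepsin G, and its signal was 555 ± 55.6 at 9 weeks and 228 ± 23.0 at 24 months, a difference of -0.91 ± 0.21. Its relative Serpinb1c read 53.5 ± 6.27 and 35.3 ± 4.84, with a difference of -0.23. Both were lower on the aged array, and Serpinb1b was measured on neither. Serpinb5, or maspin, a serpin of myoepithelial and basal cells that does not inhibit proteases, read 78.3 ± 8.34 and 41.6 ± 5.07, with a difference of -0.54 ± 0.23. Of 10 markers of basal and myoepithelial cells, all measured on both arrays, 2 were at least 2-fold lower and 0 higher, with a median of -0.02. The 2 were Cnn1 (-2.14) and Myh11 (-1.83). The scaled signals of the list summed to 83.2 at 9 weeks and 92.3 at 24 months. This sum weighs bright probes most, and the brightest, Trp63, differed by 0.29. The part of these cells in the Serpinb5 value was not tested. Serpinb11 read 506 ± 50.7 and 343 ± 34.5, with a difference of -0.19.

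Serpinb9, the inhibitor of granzyme B, read 1186 ± 119 at 9 weeks and 951 ± 95.2 at 24 months. Its difference of 0.05 was within the error of 0.20. It was the 1 measured gene of 7 Serpinb9 genes, and Serpinb9b, Serpinb9c, Serpinb9d, Serpinb9e, Serpinb9f and Serpinb9g were dim on both arrays. Serpinb2, Serpinb3a, Serpinb3d, Serpinb7, Serpinb12 and Serpinb13 were not measured either.

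All 5 Serpinb6 genes were measured on both arrays. The proteins of this group inhibit trypsin-like proteases and cathepsin G inside cells. Serpinb6a read 4431 ± 443 at 9 weeks and 4637 ± 464 at 24 months, a difference of 0.44 ± 0.20. Serpinb6c read 3301 ± 330 and 3262 ± 326, a difference of 0.35. These 2 signals were equal within their error before scaling. Serpinb6d read 129 ± 13.3 and 141 ± 14.4, a difference of 0.49. Serpinb6e read 29.0 ± 4.53 and 26.5 ± 4.39, a difference of 0.24 ± 0.33. Serpinb6b read 828 ± 82.9 and 599 ± 59.9, with a difference of -0.10. Thus 4 of 5 lay above 0, where 59.9% of all genes did, and all were under 2-fold. With the arrays set level on the spike-in controls, Serpinb6e turned below 0 and 3 remained above.

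The Serpinb6 probes do not read their genes apart with certainty. Stretches of 30 bases from the Serpinb6a, Serpinb6c and Serpinb6e probes, at chr13:34009796-34009855, chr13:33971703-33971762 and chr13:33924218-33924277 on the minus strand, are lined up here, with capitals at the 6 positions where they differ.
Serpinb6a: agtgaccttatccataaGtGCaatgGcaAT
Serpinb6c: agtgaccttatccataaGtGCaatgAcaGC
Serpinb6e: agtgaccttatccataaAtATaatgAcaGT
Over the whole overlap of 42 bases, 92.9% of the bases of the Serpinb6a and Serpinb6c probes were the same. Across the family, 9 pairs of probes shared at least 80% of their bases over an overlap of at least 30, which touched 15 of the 86 probes and 13 genes. They lay within the Serpina1, Serpina3, Serpinb3, Serpinb6 and Serpinb9 groups. The files list more than 1 serpin gene for 4 probes, those of Serpina1c, Serpina1d, Serpina3f and Serpinb9f. Values within these groups may therefore hold signal of a near-copy.

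Clade A serpins were represented by 13 of 26 genes, of which 10 were measured on both arrays. The Serpina1 genes encode alpha-1-antitrypsin, the main inhibitor of neutrophil elastase in plasma. Serpina1a read 583 ± 58.4 at 9 weeks and 349 ± 35.1 at 24 months, a difference of -0.37 ± 0.20. Serpina1c read 574 ± 57.6 and 339 ± 34.1, a difference of -0.39 ± 0.20. These values are not independent, since the 2 probes shared 98.0% of 51 bases. Serpina1e read 304 ± 30.5 and 211 ± 21.3, a difference of -0.16, and Serpina1b read 175 ± 17.8 and 138 ± 14.2, a difference of 0.03. All 4 were under 2-fold, and Serpina1d was not measured.

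The first 30 bases of the Serpina1a probe, at chr12:105091819-105091878 on the minus strand, are lined up here with the matching stretches of the Serpina1c and Serpina1e probes, with capitals at the 2 positions where the 3 are not all the same.
Serpina1a: taaAaTgtcatccttccttctgaattgggt
Serpina1c: taaGaTgtcatccttccttctgaattgggt
Serpina1e: taaGaAgtcatccttccttctgaattgggt
A second Serpina1a probe lies in coding sequence, at chr12:105091979-105092038, and shares 26 bases, in capitals, with the Serpina1b probe at chr12:104966520-104966579, both on the minus strand.
Serpina1a, second probe: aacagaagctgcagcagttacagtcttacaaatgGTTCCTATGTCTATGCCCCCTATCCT
Serpina1b: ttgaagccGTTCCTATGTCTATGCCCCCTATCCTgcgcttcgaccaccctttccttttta
This second Serpina1a probe was dim on both arrays, with signals of 3.71 and 3.32, whereas the Serpina1b probe was measured on both. The level of Serpina1a thus depended on which of its probes was read.

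Serpina3 genes are the mouse relatives of antichymotrypsin, an inhibitor of cathepsin G and chymase. Of 11 such genes, 5 were measured, all on both arrays. Serpina3m read 66.8 ± 7.45 at 9 weeks and 74.7 ± 8.18 at 24 months, a difference of 0.53 ± 0.23. Serpina3b read 117 ± 12.2 and 85.4 ± 9.17, a difference of -0.09. Serpina3g, which acts on cathepsins inside leukocytes, read 49.5 ± 5.86 and 36.8 ± 4.86, a difference of -0.06. Serpina3h read 185 ± 18.8 and 133 ± 13.8, a difference of -0.10. Serpina3j read 44.0 ± 5.33 and 34.0 ± 4.55, a difference of 0.00. Only Serpina3m among the 5 differed by more than the error of its difference. Serpina3a, Serpina3c, Serpina3f, Serpina3i, Serpina3k and Serpina3n were not measured.

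Among the other clade A genes, Serpina11 had the highest difference of the 27, at 0.55 ± 0.21, with 147 ± 15 and 166 ± 16.8. The hormone-binding serpins Serpina6, which carries corticosteroids, and Serpina7, which carries thyroxine, were not measured. Serpina5, the inhibitor of activated protein C, Serpina12, or vaspin, Serpina16 and Serpina4-ps1 were not measured either.

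In clade E, Serpine2, or protease nexin 1, which holds back thrombin and plasminogen activators, read 90.5 ± 9.56 at 9 weeks and 61.4 ± 6.91 at 24 months. Its difference of -0.19 ± 0.22 did not exceed its error, and Serpine3 was not measured. Serpinh1, the collagen chaperone of the endoplasmic reticulum, read 219 ± 22.2 and 197 ± 20.0, a difference of 0.22 ± 0.21. Serpind1, or heparin cofactor II, and Serpini2 were not measured.

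For Serpinc1, or antithrombin, the measured value came from a probe other than that of its RefSeq transcript. The bright probe, at chr1:162934272-162934331 on the plus strand, read 4268 ± 427 at 9 weeks and 3038 ± 304 at 24 months, a difference of -0.12. The probe for the RefSeq transcript, at chr1:162932565-162932624, was dim on both arrays, at 5.44 ± 3.17 and 3.16 ± 3.16. The bright probe lies inside a locus that the array design names by position alone and places on the minus strand, at chr1:162933979-162944379. A probe of that locus, 665 bases away, read 4291 and 3032, a difference of -0.13. The other probe of that locus within 5000 bases read 41.1 and 4.71, so the 2 probes of the locus did not move alike.

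For Serpinb8, an intracellular inhibitor of furin, the 2 probes also stood apart. The bright one, at chr1:109504865-109504924, read 5600 ± 560 at 9 weeks and 4764 ± 476 at 24 months, a difference of 0.14 ± 0.20. Its bases 26 to 55 are shown with the longest run of alternating T and G, 14 bases, in capitals, followed by the whole second probe, which spans an intron between chr1:109499452 and 109501197 on the same strand.
Serpinb8, bright probe: tgtgtaTGTGTGTGTGTGTGcctctgtgtg
Serpinb8, second probe: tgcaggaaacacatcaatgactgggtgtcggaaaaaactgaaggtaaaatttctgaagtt
The second probe read 24.9 ± 4.44 at 9 weeks and was dim at 24 months, at 9.35 ± 3.76. A run of at least 12 alternating T and G, read on the printed strand, was found in 112 of 56597 probes (0.198%). Both arrays measured 97.3% of these against 47.3% of all probes, with median signals of 6924 and 5904 against 21.3 and 14.6. The same run on the other strand was in 67 probes (0.118%), of which both arrays measured 92.5%. With Serpinc1 and Serpinb8 read on their other probes, a choice made after their values were seen, 33 genes were measured on at least 1 array and 25 on both, and the same 3 genes passed 2-fold.

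**Figure D3:**
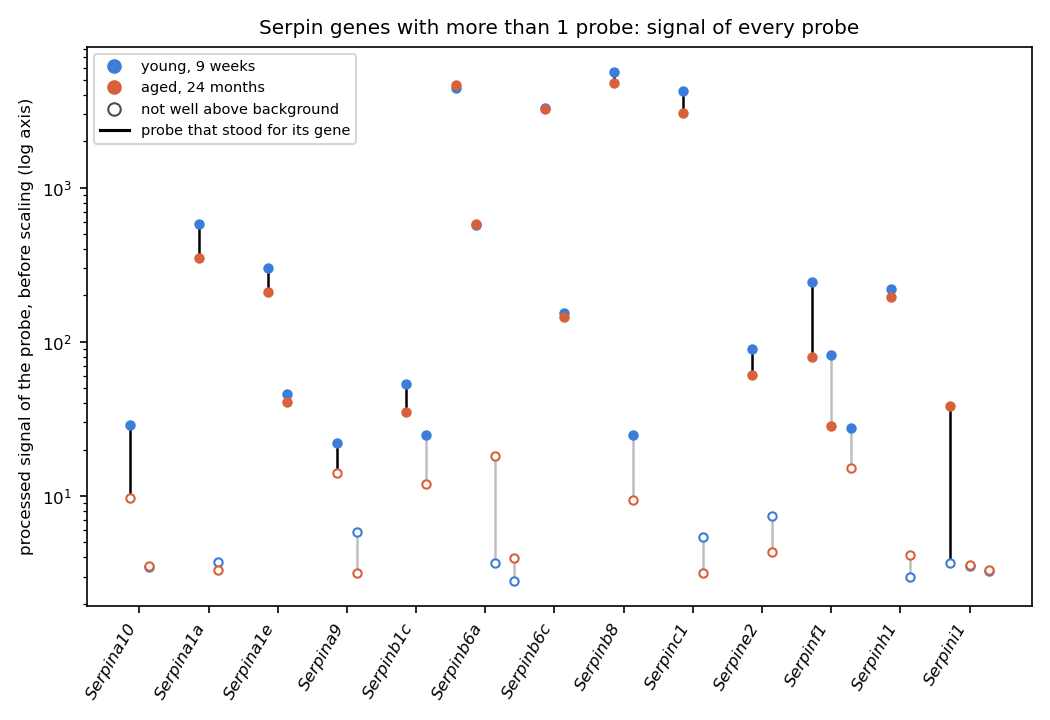
Processed signal, on a log axis and before scaling between arrays, of every probe of 13 serpin genes that had more than 1 probe and at least 1 measured. Each vertical line joins the young (blue) and aged (red) signal of 1 probe, open points were not well above background, and black lines mark the probe that stood for its gene. All 3 Serpinf1 probes are lower on the aged array, whereas Serpinc1, Serpinb8 and Serpina1a each have 1 bright probe and another at or near background. Serpini1 has 1 probe measured on the aged array only, and its others are dim on both. Further genes, such as Serpinh1 and Serpine2, also have a measured probe beside a dim one.

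Of the 63 genes, 18 had more than 1 probe. In 4 of them more than 1 probe was measured on both arrays, and their differences then lay within 0.36 of each other. In 9 of the 18, a measured probe stood beside one that was dim on both arrays. The other 45 genes had a single probe, so their values have no second reading.

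By position, the 3 clusters had similar shares of measured genes, 52% on chromosome 12, 53.3% on chromosome 13 and 50% on chromosome 1, against 57.7% of all genes. On chromosome 12, 13 of 25 clade A genes were measured, 10 of them on both arrays. On chromosome 13, 8 of 15 clade B genes were measured, all on both arrays, and 5 of the 8 were the Serpinb6 genes. On chromosome 1, 6 of 12 clade B genes were measured, 3 of them on the young array only. The median difference was -0.07 for the cluster on chromosome 12, 0.15 for that on chromosome 13 and -0.19 for that on chromosome 1, against 0.09 for all genes. Without the Serpinb6 genes, the median on chromosome 13 was -0.23, over 3 genes. Of the 11 genes outside these clusters, 7 were measured.

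The direction of the small differences depended on how the arrays were set level. Over 7 ways of scaling, the median of all genes moved between -0.16 and 0.27, and 12 of the 27 genes kept their sign in all of them. Serpina1a, Serpina1c, Serpinb11, Serpinb1a, Serpinb5, Serpinf1 and Serpinf2 stayed below 0, and Serpina11, Serpina3m, Serpinb6a, Serpinb6c and Serpinb6d stayed above. Serpinf1 ran from -1.49 to -0.87 and Serpinb1a from -1.16 to -0.74.

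**Figure D4:**
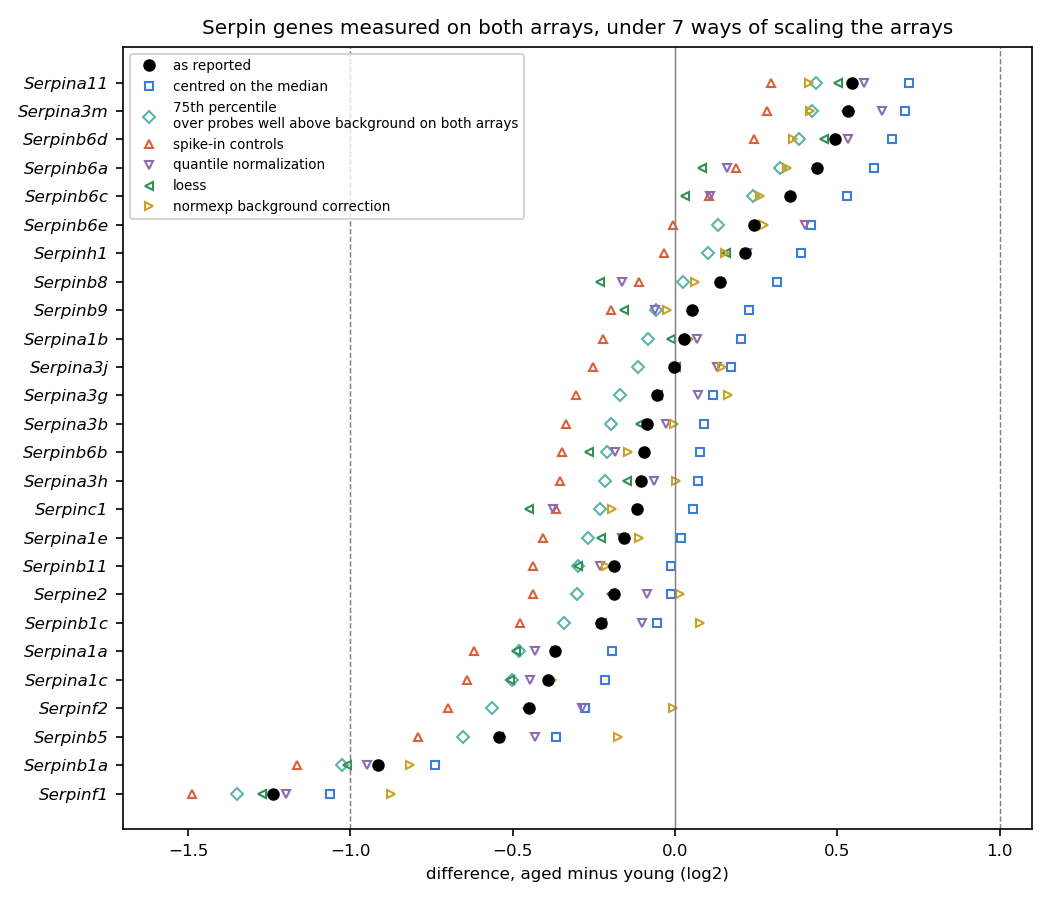
Difference, aged minus young on the log2 scale, of 26 of the 27 serpin genes measured on both arrays under 7 ways of scaling or background correction, 1 row per gene. Filled black points are the values reported in the text, open symbols the other ways, and dashed lines mark 2-fold. Serpinf1 is past 2-fold in all but normexp, and Serpinb1a in 3 of the 7.

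The proteases that serpins act on were looked up in the same way. Of 36 serine proteases of salivary ducts and acini, 22 were measured on both arrays, with a median of -0.09. Klk10 was higher, from 37.6 ± 5.04 to 248 ± 25 (3.09), Htra1 was lower (-1.19), and Tmprss11g was lower by its limit of 1.11. The Klk10 call held in all 7 scalings, whereas those of Htra1 and Tmprss11g were lost with normexp, the latter also after centring on the median and quantile normalization. The brightest by the sum of both arrays, Klk1b5, one of the closely similar Klk1b genes, read 250558 ± 25056 and 228746 ± 22875, a difference of 0.24. Of 15 granule enzymes of neutrophils, mast cells and cytotoxic cells, 8 were measured. The list also held Mpo, a peroxidase rather than a protease. Gzma was higher, from 33.6 ± 4.71 to 142 ± 14.6 (2.45), and the tryptase Tpsb2 was lower (-1.05), a call that was lost in 3 of the 7 scalings. Elane, the elastase that Serpina1 and Serpinb1a proteins inhibit, was the brightest, at 691 ± 69.2 and 630 ± 63.1, with a difference of 0.24, while Prtn3, Mpo and Cpa3 were not well above background. Serpinb9 and Gzmb, the granzyme it inhibits, thus read 0.05 and 0.42, both under 2-fold.

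Of 20 plasminogen and coagulation genes, 13 were measured on both arrays. The urokinase receptor Plaur (-1.05) and F10 (-1.20) were lower, 0 were higher, and the brightest was Lrpap1, at 1359 ± 136 and 1099 ± 110. With normexp neither Plaur nor F10 passed 2-fold, and after centring on the median Plaur did not. Plasminogen (Plg), its activator Plat, prothrombin (F2) and vitronectin (Vtn) were dim on both arrays, whereas Plau read 113 ± 11.8 and 55.1 ± 6.5 (-0.67). All 7 cysteine proteases of the list that were found on the array were measured on both. Ctss was lower, from 4941 ± 494 to 1729 ± 173 (-1.14), though not past 2-fold after centring on the median, and the brightest, Ctsb, differed by -0.04.

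Other protease inhibitors, most but not all of them secreted, moved in both directions. Of 34 such genes, 17 were measured on both arrays, with a median of -0.06. Cst3 (-1.09), Cst10 (-2.05) and Stfa2 (-1.42) were lower, Timp4 was lower by its limit of 2.80, and Mug1 and Stfa3 were higher by their limits of 2.85 and 1.70. Of these 6 calls, those of Cst10, Timp4 and Mug1 held in all 7 scalings, Cst3 was lost after centring on the median, and Stfa2 and Stfa3 with normexp. The brightest, Wfdc12, read 137402 ± 13740 and 123396 ± 12340, a difference of 0.22.

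**Figure D5:**
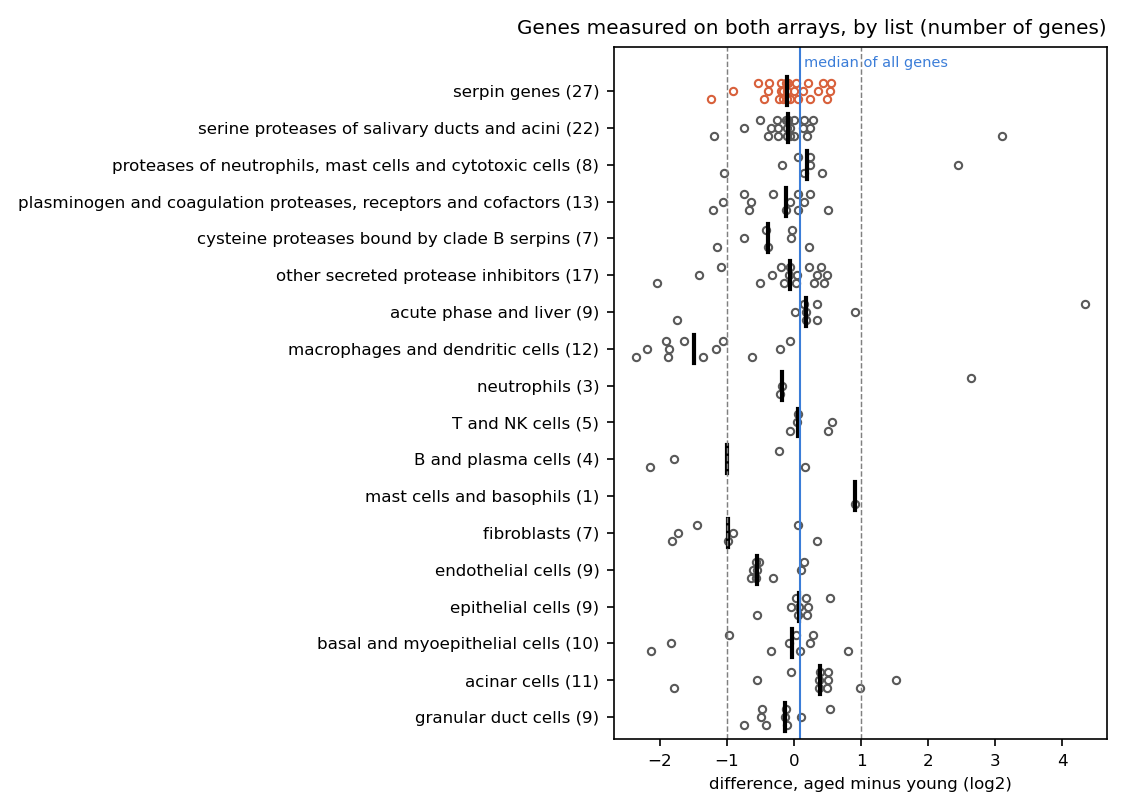
Difference, aged minus young on the log2 scale, of the genes measured on both arrays in the serpin family and in 17 other gene lists, 1 point per gene with the number of genes beside each name. Black bars are list medians, the blue line is the median of all genes and dashed lines mark 2-fold. The serpin genes lie close around 0 except for Serpinf1 and Serpinb1a, and the macrophage list has a median of -1.5.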

How the data were processed

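RNA of 2 samples, 1 per age, was hybridized to Agilent mouse arrays for the authors. The deposited scanner files (Feature Extraction 12.0.3.1, per the labels) give a processed intensity per spot, corrected for background by the authors' software, its error and marks for outlier, saturated and well-above-background spots. The authors' processed table holds the same values as a signal divided by a constant per array (GeneSpring, 75th percentile) and was an alternative.

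For each array, log2 of the processed intensity minus log2 of the 75th percentile over 59305 non-control spots was taken, as the methods name. Outlier spots (90 and 93, none of a serpin probe) were left out on both arrays, and no spot was saturated. Of the spots, 55.4% and 50.8% were well above background, which limits precision. Spots of a probe were averaged (median SD 0.033 over 285 probes with at least 8 spots), and the brightest kept probe stood for its gene. Names of other genes came from RefSeq accessions (33767 of 56605 probes matched, GRCm38.p6), and all 63 serpin names matched current symbols. The RefSeq table served for names only. Probe sequences and positions (mm9) came from the files.

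The serpin genes and the 17 gene lists were chosen with earlier results of these data known. Every serpin gene entered the counts, and of each list the genes past 2-fold, the brightest gene (by the summed signal of both arrays) and defining genes not above background were named, except a few items that are not reported here. Sequences were taken for genes past 2-fold or among the 5 brightest. Genes named outside these rules, Serpinb10 and the near-copies, the sequence of Serpinb1a, and the comparisons of their probes, were added after their values were seen. The steps were tested on simulated data. Alternatives used limma 3.58.1 (R 4.3.3, normexp offset 50) and pandas 2.3.3 (Python 3.11.15). Whether a sample held RNA of 1 mouse or of several is not given in the sources used here. No block or left-out replicate was possible with 1 array per age.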

Additional observations from a re-analysis of the deposited data

How the results depend on the processing

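Serpin genes past 2-fold numbered 1 higher (Serpini1) and 2 lower (Serpinf1, Serpinb3b), counting lower limits. With normexp background correction, which adds an offset, there were 0 and 0, and Serpinf1 was at -0.87, Serpinb3b at a limit of 0.33 and Serpini1 at 0.72. Without a filter on dim probes there were 3 and 4, and with probes measured on both arrays only, 0 and 1. With spike-in controls there were 4 lower genes, Serpinb1a (-1.16) and Serpinb3c added. With the mean or the dimmest of a gene's kept probes there was 1 lower gene, Serpinf1 being at -0.96 and -0.50. Serpinb1a also passed 2-fold with the percentile taken over probes that both arrays measured (-1.03) and with loess (-1.01). Centring on the median, quantile normalization, outlier spots kept and the authors' processed table gave the same 3 serpin genes.

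Over all genes, 539 were higher and 1098 lower. The counts were 182 and 297 with normexp, 1685 and 2416 without the filter, and 285 and 571 with probes measured on both arrays only, and 350 were higher with spike-in controls. Among genes measured on both arrays, 33.2% of those past 2-fold were higher, against 52.7% after centring on the median and 14.2% with spike-in controls. The number of serpin genes measured on at least 1 array, 34, stayed within 1.5 times under each way of counting. Over the 7 scalings, the list median stayed below 0 for macrophage (-1.75 to -1.19), fibroblast (-1.26 to -0.78), endothelial, B and plasma cell and cysteine protease genes. It stayed above 0 for Kit, the only measured gene of the mast cell list, and crossed 0 for the other 11 lists. No result turned its direction while past 2-fold. The causes of these shifts were not tested. No paired analysis was possible because each age had 1 array. Depth of signal limits the 29 unmeasured serpin genes, for which neither presence nor absence is shown.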

Other observations

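Markers of other cell types, looked up beside the serpin genes, differed in both directions. Of 10 neutrophil genes, 4 passed 2-fold, all higher at 24 months. Ltf went from 18.4 ± 3.51 to 88.8 ± 9.38 (2.64), and S100a8, S100a9 and Ngp were higher by limits of 1.99, 3.81 and 1.2. Cxcr2 and Mmp8 were dim on both arrays, and the brightest, Csf3r, read 20357 ± 2036 and 13610 ± 1361 (-0.21). Of B and plasma cell genes, Cd79b (-2.14) and Jchain (-1.78) were lower, while Cd79a and Mzb1 were not measured. Of T and NK cell genes, Cd3g and Il7r were lower by limits of 1.04 and 2.15, and Cd8a and Klrb1c were not measured. The 5 measured on both arrays did not share this direction. Of these, 4 lay above 0 and 0 passed 2-fold, with a median of 0.06, and the brightest, Cd4, differed by 0.05. Of the 6 genes in the list of mast cells and basophils, only Kit was measured (0.91). The mast cell tryptase Tpsb2, counted above among the granule enzymes, was lower (-1.05). The calls of Ltf, S100a9 and Jchain held in all 7 scalings, and the others named here were lost in at least 1, normexp among them.

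Among structural and secretory genes, 0 of 10 endothelial genes passed 2-fold, with a median of -0.55 and Egfl7 the brightest (-0.61). Of basal and myoepithelial genes, Myh11 (-1.83) and Cnn1 (-2.14) were lower, and the brightest, Trp63, differed by 0.29. Of acinar genes, Bpifa2 was higher, from 91878 ± 9188 to 204070 ± 20407 (1.52), Smgc was lower (-1.79), and the brightest, Dcpp2, differed by 0.51. No granular duct gene passed 2-fold, and the brightest, Klk1, differed by -0.10. Of 20 acute phase and liver genes, Ttr was higher, from 17.9 ± 3.76 to 278 ± 28 (4.33), Trf was lower (-1.74), Fgb was lower by a limit of 2.36, Alb and Apoa1 were not measured, and the brightest, Hp, differed by 0.91. The calls of Cnn1, Smgc, Ttr and Trf held in all 7 scalings, while those of Myh11 and Fgb were lost with normexp and that of Bpifa2 with loess.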
